A study of Gymnopus androsaceus with 9 samples.

Results

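The genes described here are the 100 whose transcript levels varied least over the whole experiment among the abundant genes of Gymnopus androsaceus, a litter-decomposing basidiomycete grown on Scots pine needles. Unique gene reads, the reads assigned to a single gene, were divided by median-of-ratios size factors and put on the scale of reads per 1000000 of the mean library total; these values are called scaled reads below. Of 29375 genes listed, 1562 had a mean of at least 100 scaled reads over the 9 libraries and are called abundant genes. The 100 of these with the lowest coefficient of variation (CV, the SD divided by the mean over the 9 libraries) were kept. They were chosen by these same values, so their low spread is a description of the choice and is not tested. Mycelium was harvested after 2, 5 and 10 months, with 3 libraries from 3 biological replicates at each harvest. All microcosms held radiation-sterilised needles and sand, received a solution of 100 mM NH4Cl at the start, and were inoculated with a needle that the fungus had colonised beforehand for 2 months. They were sealed and kept at 20 °C; 4 were harvested at each time, of which 3 are represented by libraries here. No strain, genotype or treatment differed between the harvests, so time in the microcosm is the labelled difference, and the calendar dates and extraction groups of the harvests are not given in the labels.

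Genes with steady transcript levels serve as internal references when other transcripts are compared between samples. In filamentous fungi the genes most often used for this encode parts of the cytoskeleton, of glycolysis, of translation or of ubiquitin-dependent protein turnover, and their steadiness has to be checked for each growth condition. Sequencing measures each transcript as a share of the pool, so a steady value is steady relative to a scaling, and a few transcripts that take a large share can lower all others. In a sterile litter microcosm the fungus meets a substrate that changes as it is used, so no harvest is an unchanged control for the others. The deposited tables give JGI protein IDs without product names, so nothing is said here of what the 100 genes encode.

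The libraries held 21939600 to 96533143 unique gene reads, with a mean of 56896282. Size factors, taken over 19535 genes with reads in every library, ran from 0.483 in 2 months replicate 3 to 1.83 in 5 months replicate 2. In 3 libraries 6 co-varying genes took over 10% of reads, at 24.9% in 2 months replicate 2, 17.2% in 10 months replicate 1 and 31.9% in 10 months replicate 2. In the other 6 libraries the same genes took 1.24% to 6.84%. No pair of libraries from one harvest agreed within sampling noise, as the lowest chi-square per gene was 71.2. The smallest count of any member in any library was 2126 reads, so counting error was small beside the differences described.

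The 100 steady genes had CVs of 6.43% to 13.8%, with a median of 11.4%, beside a median of 26.8% and a highest value of 168% over all 1562 abundant genes. Reads in the highest library exceeded those in the lowest by 1.22-fold to 1.65-fold in the steady genes, with a median of 1.41, whereas the median over all abundant genes was 2.25. The steady genes had 0.339% to 1.41% of CV from counting error alone, so nearly all of the spread that remained lay beyond the counting of reads. Taking the counting variance off before ranking gave the same 100 genes, and thinning every library to the depth of the shallowest kept 82 of them. The steady genes were not the most highly read ones. Their median was 146 scaled reads, against 179 over all abundant genes, and 55 of the 100 lay between 100 and 150 scaled reads, where 39.3% of all abundant genes lay. Above 1000 scaled reads there were 2 steady genes among 84 abundant genes.

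**Figure D1:**
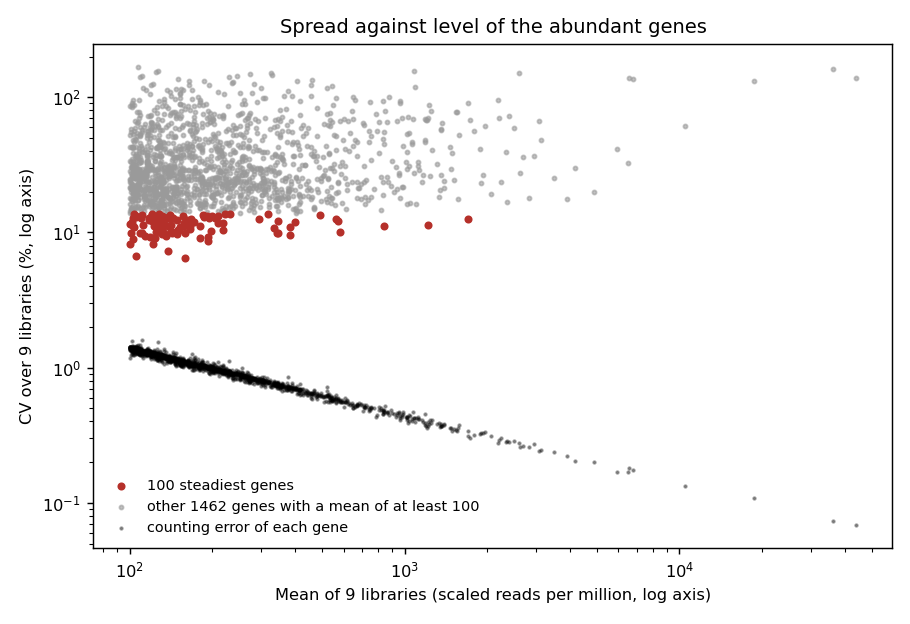
CV over the 9 libraries in percent against the 9-library mean in scaled reads, both on log axes, for the 100 steadiest genes (red) and the other 1462 abundant genes (grey), with each gene's counting error in black. The red points lie below 13.8% and far above the black points, and 2 of them lie above 1000 scaled reads.

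The steadiest gene was JGI protein ID 913414. It had 162, 161 and 160 scaled reads in the 2-month libraries, 166, 164 and 135 in the 5-month libraries, and 157, 170 and 152 in the 10-month libraries. All libraries except 5 months replicate 3 lay between 152 and 170, and the 3 harvests overlapped. Its CV was 6.43% over 9 libraries and 3.36% without 5 months replicate 3. ID 919635, the next in rank, had 109, 94.1 and 103 scaled reads at 2 months, 112, 98.5 and 110 at 5 months, and 108, 114 and 98.3 at 10 months. Its libraries were spread evenly, with a high and a low value in every harvest and a highest library 1.22-fold above the lowest, the narrowest range of all abundant genes.

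ID 878369 had 133, 146 and 159 scaled reads at 2 months, 134, 143 and 139.5 at 5 months, and 134, 126 and 130 at 10 months. Its harvest means (± SD, n = 3 each) were lower at each later harvest, with 146 ± 13.3 at 2 months, then 139 ± 4.57 at 5 months and 130 ± 3.68 at 10 months, and the 10-month libraries reached into the range of the 2-month libraries. ID 919605 had 108, 100 and 112 scaled reads at 2 months, 90.1, 85.8 and 98.5 at 5 months, and 105, 100.6 and 104 at 10 months. All 3 of its 5-month libraries lay below all 6 others, so even this gene, with the CV of rank 4, had a harvest set apart. Its 2-month and 10-month libraries overlapped. ID 859848 had 119, 122 and 115 scaled reads at 2 months, 119, 103 and 127 at 5 months, and 133, 136 and 119 at 10 months. Its 5-month libraries covered most of the range of the gene.

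**Figure D2:**
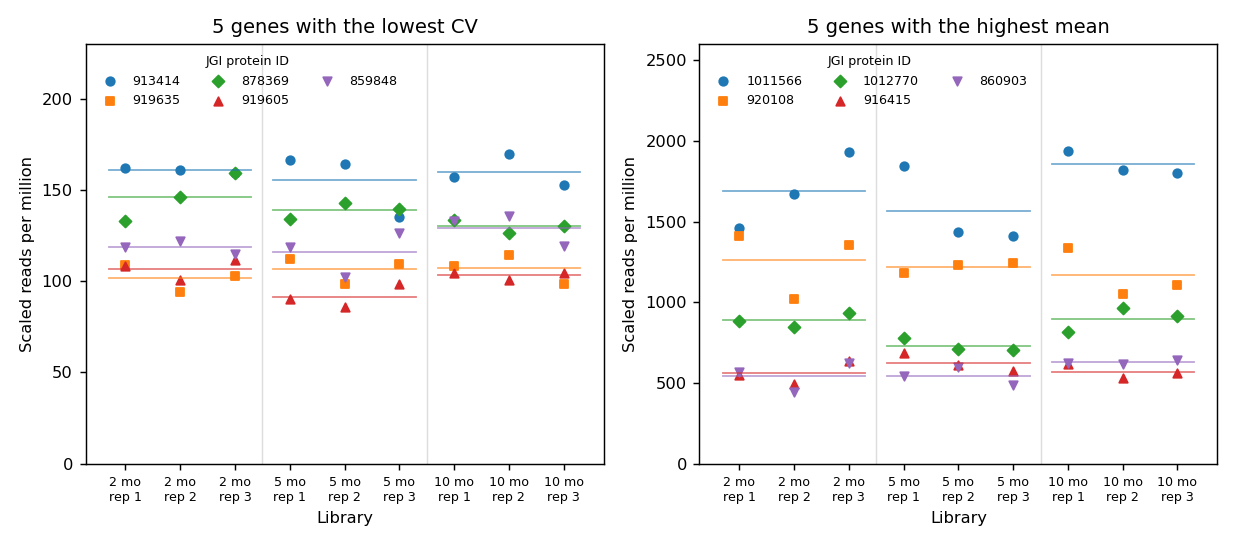
Scaled reads in each of the 9 libraries for the 5 genes with the lowest CV (left) and the 5 with the highest mean (right); points are libraries, short lines are harvest means, and both axes start at 0. At left ID 913414 stays between 135 and 170 scaled reads, and at right ID 1011566 stays between 1413 and 1939.

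The most highly read of the 100 genes was ID 1011566. It had 1458, 1673 and 1931 scaled reads in the 2-month libraries, 1842, 1435 and 1413 in the 5-month libraries, and 1939, 1818 and 1803 in the 10-month libraries. Its means (± SD, n = 3 each) were 1687 ± 237 for 2 months, 1563 ± 242 for 5 months and 1854 ± 74.7 for 10 months, so the latest libraries were the closest together. ID 920108 had 1412, 1022 and 1356 scaled reads at 2 months, 1183, 1230 and 1246 at 5 months, and 1336, 1053 and 1109 at 10 months. Here the 5-month libraries lay within the range of both other harvests.

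ID 1012770 had 883, 849 and 931 scaled reads at 2 months, 780, 710 and 701 at 5 months, and 817, 962 and 915 at 10 months. Its 5-month libraries lay below all others without overlap, and its highest harvest mean was 1.23-fold above its lowest. ID 916415 had 548, 494 and 638 scaled reads at 2 months, 685, 610 and 576 at 5 months, and 616, 531 and 559 at 10 months. ID 860903 had 569, 442 and 622 at 2 months, 543, 597 and 484 at 5 months, and 620, 618 and 644 at 10 months. In ID 916415 all harvests overlapped, in ID 860903 the 10-month libraries lay above the 5-month ones, and in both genes 2 months replicate 2 was the lowest library.

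Reads per gene depend on transcript length, so levels between genes were compared as scaled reads per kilobase of the transcript length implied by the deposited values. On that scale the 100 genes spanned 20.1 to 1048 scaled reads per kilobase, with a median of 101.3, beside a median of 167 over all abundant genes. The highest level per length was that of ID 997571, at 1048 scaled reads per kilobase with a length of 330 bases; it was chosen for mention after its values were seen. ID 1011566 followed at 910, the shortest member ID 952671 at 868, ID 860903 at 789 and ID 916415 at 755 scaled reads per kilobase. ID 1012770, behind ID 1011566 and ID 920108 alone by reads, had rank 15 per length, at 321. The lowest level per length was in the longest member, ID 989185, at 20.1 scaled reads per kilobase over 5520 bases.

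At the edge of the list, values ran on without a break. The last 2 genes inside were ID 876214 with a CV of 13.79% and ID 911898 with 13.80%, and the first 2 outside were ID 879448 with 13.83% and ID 965767 with 13.84%. ID 876214 had 110, 89.9 and 105 scaled reads at 2 months, 135, 128 and 120 at 5 months, and 145, 126 and 126 at 10 months, so all later libraries lay above the 2-month ones. ID 911898 had 98.2, 122 and 119 scaled reads at 2 months, 106, 86.6 and 106 at 5 months, and 116, 80.2 and 98.5 at 10 months, with no order of harvests. The 2 genes therefore reached one CV in different ways, by harvest in ID 876214 and within harvests in ID 911898. The limit on level was met most closely by ID 913220, with a mean of 100.3 scaled reads, whose libraries ran from 87.5 in 5 months replicate 2 to 122 in 2 months replicate 3.

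Harvest means of a steady gene differed by 1.03-fold to 1.31-fold between the highest and the lowest harvest, with a median of 1.17, beside a median of 1.57 over all abundant genes. The difference was under 1.1-fold in 15 of the 100 genes and under 1.2-fold in 68, where 2.82% and 10.8% of all abundant genes lay below these limits. Of the 100 genes, 34 peaked by their mean at 2 months, 15 at 5 months and 51 at 10 months. Among all abundant genes 29%, 14.3% and 56.7% did so. Their lowest mean was at 2 months in 28 genes, at 5 months in 54 and at 10 months in 18. Here the shares of abundant genes were 41.7%, 38.6% and 19.7%. The most frequent order, in 31 genes, was lowest at 5, intermediate at 2 and highest at 10 months. That order was found in 23.9% of abundant genes. These small leanings depended on the scaling. With upper-quartile scaling 45 genes peaked at 2 months and 30 at 10 months, where 502 and 795 of the 1562 abundant genes did. With library totals alone 0 peaked at 10 months, where all 100 had their lowest mean. On that scaling 360 abundant genes peaked at 10 months and 852 had their lowest mean there.

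The next 3 members were picked out after their values were seen, for the widest difference between harvest means, the smallest spread within harvests and the narrowest difference between harvest means. ID 1015721 had 190, 165 and 178 scaled reads at 2 months, 156, 164 and 174 at 5 months, and 211, 222 and 216 at 10 months. Its 10-month libraries lay above all 6 others, at a mean 1.31-fold above that of 5 months. ID 920034 had 116, 115 and 117 scaled reads at 2 months, 98.1, 98.3 and 104 at 5 months, and 84.6, 93.3 and 95.9 at 10 months. Each later harvest lay below the one before with no overlap, and its spread within harvests was the smallest of the 100 genes, at 3.92%. Its highest harvest mean was 1.27-fold above its lowest. ID 916499 was the opposite case, whose harvest means (± SD, n = 3 each) were 140 ± 13.3 for 2 months, 144 ± 24.3 for 5 months and 140 ± 6.19 for 10 months, so its CV of 10.2% came almost wholly from differences within harvests.

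All 100 steady genes passed the low-count filter of the test over all genes, and 0 of them were called for any difference among the harvests (edgeR, quasi-likelihood F test, adjusted p under 0.05 after Benjamini and Hochberg). In that test 38.4% of all 20168 genes tested and 47.8% of the 1562 abundant genes were called. The members were chosen for low spread over the same libraries, so nothing is read from the difference between these shares. For any difference among the harvests, the members with an unadjusted p under 0.05 were 0 by edgeR and 0 by the F test of limma voom. By the likelihood ratio test of DESeq2 they were 5. At an adjusted p under 0.05 DESeq2 called 1 member, with 45.6% of all genes called, and limma voom 0, with 37.6% of all genes called. For 5 against 2 months 0 members were called by edgeR, with 20.7% of all genes called, and 3 members had an unadjusted p under 0.05. For 10 against 5 months 0 were called, with 18.1% of all genes called, and 2 had an unadjusted p under 0.05. For 10 against 2 months 0 were called, with 33.1% of all genes called, and 2 had an unadjusted p under 0.05. In the same order of comparisons DESeq2 called 0, 2 and 2 members, with 25.9%, 23.3% and 37.1% of all genes called. Limma voom called 0 members in each, with 20.3%, 19.5% and 32.6% of all genes called. At an unadjusted p under 0.05 the members were 6, 7 and 6 by DESeq2 and 4, 3 and 3 by limma voom. No share of all genes was taken at an unadjusted p. The members were chosen for low spread, so nothing is read from any of the unadjusted counts. The lowest adjusted p of any member was that of ID 920034 for 10 against 2 months, where its log2 fold change was -0.36 ± 0.15 (SE) and edgeR put the adjusted p at 0.0765. The median SE of a member was 0.17 on the log2 scale. The fit draws each gene's spread towards that of the other genes, so these SEs are not a member's own spread. In ID 920034 the CV within harvests was 3.92%, the lowest of the 100 genes. For genes chosen for low spread, not being called therefore does not show that the harvests were alike. Fitted on the abundant genes alone, edgeR called 9 members by the F test, with 46.5% of the 1562 genes called, and 12 for 10 against 2 months, with 44.8% called. Over all genes with library totals alone edgeR called 5 members by the F test, with 43.2% of all genes called, so the count of 0 depends on the fit.

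The libraries of 2 harvests could lie apart even so. At 10 against 5 months 27 of the 100 genes had all 10-month libraries above all 5-month libraries, and 6 had them all below, where 21.1% and 20.7% of all genes tested and 41.5% and 11.6% of abundant genes were so separated. At 10 against 2 months the counts were 13 above and 5 below, where 24.1% and 21.8% of all genes tested and 40.1% and 14.1% of abundant genes were separated. At 5 against 2 months they were 5 above and 16 below, where 19.9% and 18% of all genes tested and 23.5% and 17.8% of abundant genes were separated. The members were chosen for low spread over these libraries, so nothing is read from these counts. These comparisons share libraries and are not independent of each other. The median log2 ratio of harvest means over the 100 genes was -0.07 for 5 against 2 months, 0.11 for 10 against 5 months and 0.06 for 10 against 2 months. Over all abundant genes it was -0.03, 0.29 and 0.26 in the same order. With upper-quartile scaling the 10-against-2-month median was -0.04 over the 100 genes and 0.17 over all abundant genes, and with library totals alone it was -0.37 and -0.17. A scaling moves both sets alike, and the choice of members holds their ratios close together, so these medians are given as a description.

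**Figure D3:**
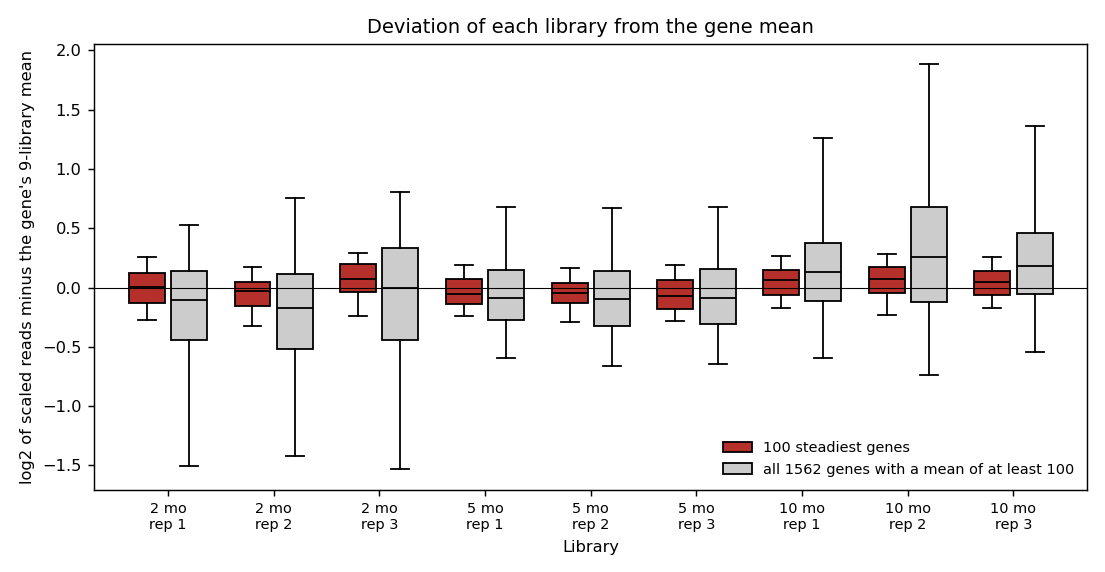
Deviation of each library from the gene's own mean on the log2 scale, for the 100 steadiest genes (red) and all 1562 abundant genes (grey); boxes span the quartiles, lines in the boxes are medians and whiskers the 5th to 95th percentiles. Medians of the red boxes lie between -0.07 and 0.07 in every library, and the grey median reaches 0.26 in 10 months replicate 2.

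Within harvests the steady genes had a pooled CV of 3.92% to 15.2%, with a median of 9.99%, beside 18.4% over all abundant genes. Over the whole experiment their median CV was 11.4%, beside 26.8% over all abundant genes. The rule kept the members' CV over the 9 libraries low, so nothing is read from how close 9.99% and 11.4% are. Single libraries were not equally close to the gene means. The median absolute deviation on the log2 scale was 0.09 in 5 months replicate 2 and 0.13 in 2 months replicate 3, which were the extremes. The highest of the 9 values lay in 2 months replicate 3 for 25 genes and in 10 months replicate 2 for 24 genes, and the lowest lay in 5 months replicate 3 for 23 genes and in 2 months replicate 2 for 17 genes. Among all abundant genes the highest value lay in 2 months replicate 3 for 19.65% and in 10 months replicate 2 for 38.03%. Their lowest value lay in 5 months replicate 3 for 14.47% and in 2 months replicate 2 for 19.72%. These libraries differ in depth and in their share of the 6 co-varying genes, whose part in these extremes was not tested.

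Summed over the 100 genes, scaled reads were 21157, 20264 and 22585 in the 2-month libraries, 20899, 20482 and 20153 in the 5-month libraries, and 22206, 21852 and 21963 in the 10-month libraries. The mean sum (± SD, n = 3 each) was 21336 ± 1171 for 2 months, 20511 ± 374 for 5 months and 22007 ± 181 for 10 months. The 10-month libraries lay within the range of the 2-month libraries and above the 5-month libraries.

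As a share of unique gene reads, with no size factor, the 100 genes took 2.76%, 2.15% and 2.83% in the 2-month libraries, 2.78%, 2.73% and 2.61% in the 5-month libraries, and 2.16%, 1.42% and 2.39% in the 10-month libraries. The 3 libraries with over 10% of reads in the 6 co-varying genes had the 3 lowest shares. Of the others, 10 months replicate 3 had the lowest share, with 1.24% of its reads in those genes. On the authors' RPKM, reads per kilobase relative to all gene reads of a library, the same 100 genes had a median CV of 21.1%, beside 29.3% over all abundant genes. The 100 genes were chosen for low spread relative to the bulk of genes that sets the size factors. A higher CV relative to library totals follows at least in part from that choice, so nothing more is read from it.

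**Figure D4:**
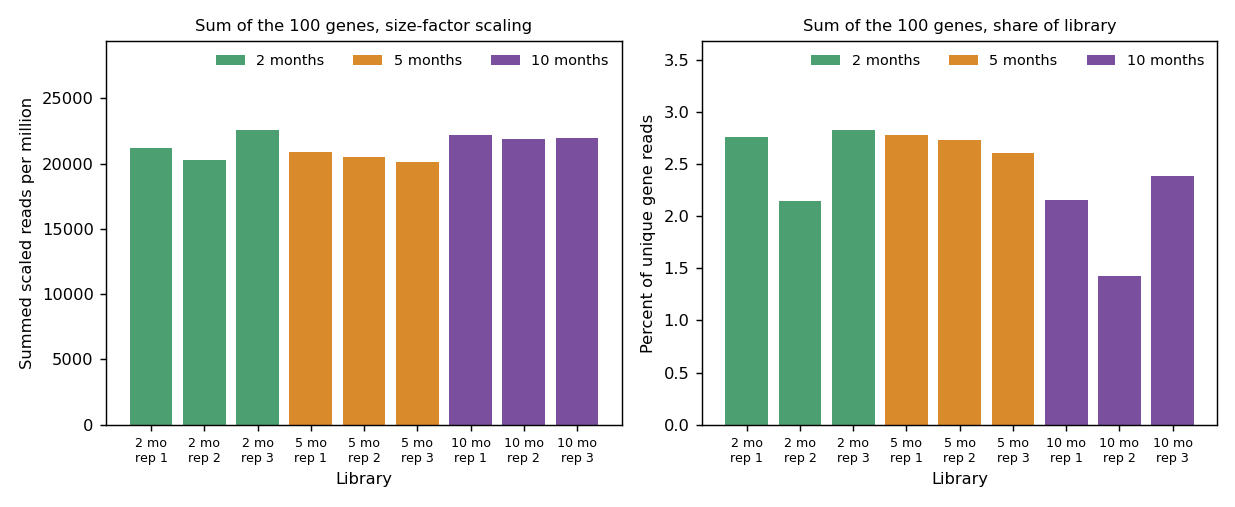
Sum of the 100 genes in each library as scaled reads (left) and as a percent of all unique gene reads (right), with harvests in colour and axes starting at 0. The scaled sums stay between 20153 and 22585, whereas the share is as low as 1.42% in 10 months replicate 2.

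The choice used unique reads without division by length, so length and shared reads could enter it through the limit on level. The implied transcript lengths of the steady genes ran from 252 bases in ID 952671 to 5520 bases in ID 989185, with a median of 1396 bases, beside 1211 over all abundant genes and 1011 over all genes with reads. Short transcripts were few: 2 of the 100 were under 500 bases, where 7.88% of all abundant genes were. Over 3000 bases there were 7, where 4.61% of abundant genes were. Genes are not independent replicates, and these counts are given as a description. ID 952671 had 232, 198 and 225 scaled reads at 2 months, 194, 194 and 186 at 5 months, and 248, 242 and 250 at 10 months. No 2 of its harvests overlapped, and its 10-month libraries were the highest. ID 989185 had 133, 117 and 114 scaled reads at 2 months, 111, 94.0 and 102 at 5 months, and 84.9, 122 and 121 at 10 months, with 10 months replicate 1 as its lowest library.

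No read was shared with another gene in 44 of the 100 genes, beside 47.8% of all abundant genes, and more than 1% of reads were shared in 14, beside 10.4%. In 6 genes over 10% of reads were shared, beside 3.9% of all abundant genes, so the levels of these 6 genes are uncertain. The highest share was 28.9% in ID 1022735, whose unique reads were 119, 107 and 142 on the scaled measure at 2 months, 106, 100 and 96.0 at 5 months, and 100.1, 110 and 106 at 10 months. Its value in 2 months replicate 3 stood apart from the other 8. Ranking by total gene reads, which include shared reads, kept 96 of the 100 genes.

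How far steadiness carried over to a library that took no part in the choice was measured by leaving out each library in turn, choosing 100 genes by the same rule on the other 8, and reading those genes in the library left out. Deviations were taken on the log2 scale from the mean of the 8 libraries and from the median of all abundant genes in the library left out. The median absolute deviation of the chosen genes was 0.25, 0.20 and 0.32 in the 2-month libraries, 0.11, 0.19 and 0.19 in the 5-month libraries, and 0.15, 0.16 and 0.16 in the 10-month libraries. Over all abundant genes it was 0.34, 0.37 and 0.45 at 2 months, 0.24, 0.26 and 0.25 at 5 months, and 0.25, 0.43 and 0.27 at 10 months. Genes chosen on the other 8 were closer to their expected level in all 9 libraries left out. Of each 100 chosen genes, 42 to 81 lay within 1.2-fold of that level, with a median of 67, beside 30.3% to 53.7% of all abundant genes, with a median of 48.8%. Within 2-fold lay 99 of the 100 in 2 months replicate 1 and all 100 in each of the other 8 libraries. Of all abundant genes 82.3% to 95.1% lay within 2-fold. The 9 libraries come from 3 harvests and the 9 choices overlap, so no test was made of these differences. Other libraries of the same harvest were always among the 8, so carry-over to a harvest that took no part was not measured.

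The carry-over was weakest in 2 months replicate 3, where 42 of the 100 genes chosen without it lay within 1.2-fold, beside 30.3% of abundant genes. The median deviation of those 100 genes was 0.27 above the median of abundant genes. That library had the fewest reads, and the part of depth was not tested. By the count within 1.2-fold the carry-over was strongest in 10 months replicate 3, with 81 genes, beside 48.8% of abundant genes. A setting added after seeing the data used the size factors of all 9 libraries in place of the median of abundant genes. There the number within 1.2-fold ran from 51 in 2 months replicate 3 to 86 in 10 months replicate 3. Of all abundant genes 31.9% to 51.7% lay within that limit, and the chosen genes were again closer in all 9.

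**Figure D5:**
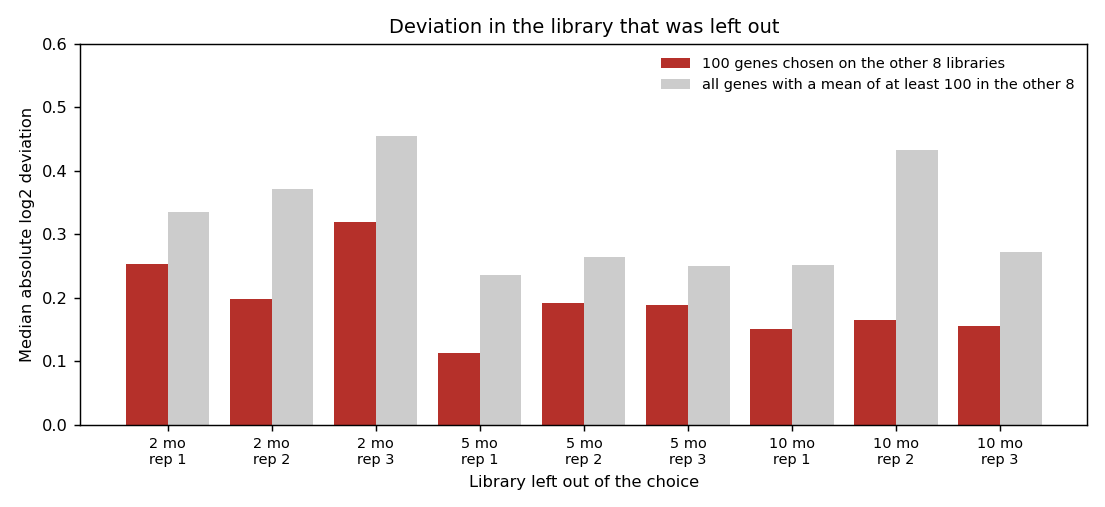
Median absolute log2 deviation in the library left out, for the 100 genes chosen on the other 8 libraries (red) and for all abundant genes in those 8 (grey), with the axis starting at 0. The red bars lie between 0.11 and 0.32 and are shorter than the grey bars, which lie between 0.24 and 0.45, in every library.

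The list itself depended on which libraries entered the choice. Leaving out 1 library kept 65 to 91 of the 100, with the fewest kept without 2 months replicate 3 and the most without 10 months replicate 3. All 9 of these lists held 49 of the 100 genes, and 46 of those were also kept under TMM scaling, upper-quartile scaling, total gene reads and thinning of all libraries to one depth. The 49 had CVs up to 11.9%, with a median of 10.2%. They include IDs 913414, 919635, 878369 and 859848 of the 5 steadiest and IDs 920108, 1012770 and 916415 of the 5 most highly read. ID 919605, whose mean of 100.5 scaled reads lay close to the limit on level, was on 4 of the 9 lists. A further 155 genes outside the 100 entered at least 1 of the 9 lists. Without the 3 libraries rich in the 6 co-varying genes, 49 of the 100 were kept.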

How the data were processed

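Total RNA of the mycelium went into Illumina libraries with paired reads, per the series design. For each library the authors deposited counts of unique gene reads, counts of total gene reads and RPKM for 29375 JGI protein IDs, per the file headers. The deposited RPKM and counts gave, within 0.01 bases, one transcript length for each of 25486 genes with reads, taking the column sum of total gene reads as depth. Not given in the sources used here are the aligner, counting tool, genome build and annotation.

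Unique gene reads were divided by median-of-ratios size factors as in DESeq2 and put on the scale of reads per 1000000 of the mean library total. Members, rule, lists and tests were chosen with earlier results of these data known. Named genes are the 5 with the lowest CV, the 5 with the highest mean, the one with the lowest mean, 2 on each side of the limit on CV, the longest, the shortest, the one with most shared reads, the 3 with the widest gap of 1 library, and up to 2 per direction and comparison among members called, of which there were 0. Lists of gene families by product name could not be applied, because the IDs come without product names.

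Harvests were compared with edgeR 4.0.16 in R 4.3.3 (TMM, filterByExpr, robust quasi-likelihood fit of 9 libraries, 20168 genes tested), with p adjusted over all genes tested; SEs are implied by the F statistic. DESeq2 1.42.0 and limma 3.58.1 served as alternatives, beside other scalings, filters, ranking measures and libraries left out. The fit and the ranking were tested on simulated data. Python 3.11.15 was used with pandas 2.3.3, and figures were drawn with matplotlib 3.10.9.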

Additional observations from a re-analysis of the deposited data

Results flagged for a closer look

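In 6 of the 100 genes 1 library stood apart from the other 8, with a gap to its nearest neighbour that, as a share of the gene's whole range, exceeded Dixon's 95% critical value for 9 values. Chance flags about 1 gene in 20, among all abundant genes 10.2% were flagged, and the 9 libraries of a gene span 3 harvests and are not 1 group. ID 960584 had the widest gap, 0.5934 of its range, with 208 scaled reads in 2 months replicate 3 and 144 to 170 in the others. ID 1022735, at 0.4945, was also highest in 2 months replicate 3. These are the 2 flagged genes with over 10% of reads shared with other genes, at 23.2% and 28.9%; the part of shared reads in the gap was not tested. ID 969009, at 0.5402, was low in 2 months replicate 1, with 103 scaled reads against 127 to 148 in the others. ID 887643, at 0.4934, stood apart in the same library but in the other direction, with its highest value there. ID 711911, at 0.5399, was high in 10 months replicate 2, with 157 scaled reads against 114 to 134. ID 913414, the steadiest gene, had a gap of 0.5042 at its low value in 5 months replicate 3. Without the library that stood apart, the CV was 6.37% in place of 12.4% in ID 960584, 6.92% in place of 12.7% in ID 1022735, 5.20% in place of 9.89% in ID 969009 and 6.24% in place of 10.2% in ID 711911.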

How the results depend on the processing

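Of the 100 genes, 8 were kept with library totals alone and 8 with the authors' RPKM, where their median CV was 21.5% and 21.1% in place of 11.4%. A minimum mean of 50 kept 37, one of 200 kept 23, ranking by the median absolute deviation over the median kept 32, and leaving out the 3 libraries rich in the co-varying genes, added after seeing the data, kept 49. Leaving out 1 library kept 65 to 91. The other settings run kept 79 or more. In place of 0 members called by the F test, library totals gave 5 and a fit on abundant genes only 9. DESeq2, by its likelihood ratio test, gave 1. In the same order 43.2%, 46.5% and 45.6% of the genes in each fit were called. For 10 against 5 months the same settings gave 6, 5 and 2, with 30.3%, 24.5% and 23.3% called, and for 10 against 2 months 1, 12 and 2, with 33.7%, 44.8% and 37.1% called, and upper-quartile scaling gave 1, with 6941 of 20168 genes called. For 5 against 2 months every setting run gave 0. The members called in these contrasts by the fit on abundant genes were all lower at 10 months, and the median log2 fold change of the 100 genes was -0.20 there for 10 against 2 months and 0.01 for all genes in that fit. The count over all genes, 7746, was 727 of 1562 in that fit and 3521 without the 3 libraries, a fit with fewer libraries and a single one at 10 months. Leaving out 1 library gave 0 members in every comparison and 5985 to 7512 genes by the F test. The replicate number as a block gave 0 members and 6130 genes by the F test. Deviations of same-numbered libraries from their harvest means correlated between -0.33 and 0.17, and those of differently numbered ones between -0.26 and 0.30. With 3 libraries a harvest these correlations are tied to each other, so they do not decide whether numbers pair libraries. The cause of each move was not tested. Counts cover counting error only, and a steady value here is steady relative to the scaling.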
